A study of Mus musculus with 10 samples.

Results

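Outer hair cells (OHCs) held 82 genes that were low or missing in converted hair cells (cHCs), the hair cell-like cells made from supporting cells (SCs) by ectopic Atoh1. These genes had at least 10 CPM, read counts scaled to the gene total of their library, in each of the 4 OHC libraries, and their lowest OHC level was at least 5 times the higher of the 2 cHC levels. They were 82 of the 4347 genes that reached 10 CPM in all 4 OHC libraries (1.89%), of 34590 genes listed. The rule used the contrast of OHCs with cHCs, so the size of that contrast is given below as a description and without a test.

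OHCs amplify sound in the cochlea by changing length with the membrane potential, a movement made by the motor protein prestin. Inner hair cells (IHCs) pass the signal to the auditory nerve through ribbon synapses that release glutamate, whereas OHCs receive most of their contacts from efferent cholinergic fibres. Atoh1 is the basic helix-loop-helix factor that starts the hair cell programme, and its forced expression in SCs turns on many hair cell genes.

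Bulk RNA-seq was analysed for 10 libraries of fluorescent cells picked by hand from mouse cochleae, 2 of each of 5 cell groups. SCs (P27 and P26) came from mice with Fgfr3iCreER and the Rosa26 loxP-stop-loxP-tdTomato reporter, and cHCs (both P33) from mice that carried the same alleles with the Atoh1-HA transgene and the alpha9 AChR-EGFP reporter. The SC and cHC mice thus shared the inducible Cre, which labels Deiters' and pillar cells after tamoxifen, and cHCs were recognised by tdTomato together with EGFP. OHCs were taken at P7 and, as the mature group, at 21 and 22 days in the labels, called OHCs (P22) by the study. The labels give prestin-YFP knock-in mice for both OHC groups, whereas the study's supplement gives a prestin-CreERT2 line with tdTomato for OHCs (P7). IHCs (74 and 75 days) came from Pval-Cre mice with the tdTomato reporter. The EGFP of cHCs is driven by the promoter of Chrna9, and prestin is encoded by Slc26a5, so these genes were also part of how the cells were picked. Paired values below follow the library order 12 and 11 for SCs, 13 and 16 for cHCs, 15 and 14 for OHCs (P7), 21 and 22 days for OHCs (P22), and 74 and 75 days for IHCs. The 2 libraries of a group differed in age for SCs, OHCs (P22) and IHCs, and the labels do not say whether the 2 libraries of cHCs and of OHCs (P7) came from separate animals. The p-values measure the spread between these libraries.

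The gene totals ranged from 15016129 to 40518766 reads, and a count of 3 was worth 0.0740 to 0.1998 CPM. The 21-day OHC library stood apart, with 41.3% of its gene reads on 10 genes and a TMM factor of 0.583, against 22.6% to 33.2% and 0.930 to 1.20 in the other 9 libraries. A list of 10 general hair cell markers summed to 6256 and 9325 CPM in cHCs and to 2384 to 5384 CPM in the OHC libraries, with all 10 at 1 CPM or more in both cHC libraries. Myo6 was the largest part of the cHC sums (3324 and 3396 CPM, 1267 to 2954 CPM in OHCs). These sums also include Atoh1 (436 and 2151 CPM, 0 to 6.32 CPM in OHCs), which the transgene carries, and Chrna9 (802 and 769 CPM), whose promoter drives the EGFP. Of the list, only Gfi1 (9.48 and 68.0 CPM) and Espn (26.5 and 105 CPM) were below all OHC libraries in both cHC libraries. A list of 12 SC markers summed to 1828 and 2801 CPM in SCs, 1645 and 1135 CPM in cHCs, 119 to 400 CPM in OHCs (P7) and 12.03 to 13.1 CPM in OHCs (P22). The cHC sums hide differences between genes. Fgfr3 (549 and 512 CPM), Prox1 (296 and 348 CPM) and Lfng were above both SC libraries in both cHC libraries. Slc1a3 (93.4 and 0.392 CPM in cHCs) overlapped SCs, and the rest were below them, such as Bace2 (65.8 and 0.302 CPM in cHCs). In such bulk samples fewer cells of a type and less RNA per cell cannot be told apart, and the part of the SC transcripts in the low cHC levels was not tested. The libraries numbered 11 to 16 held SCs, cHCs and OHCs (P7), and OHCs (P22) and IHCs had numbers of another series, so the number series and these groups cannot be told apart in a comparison across them. Within the first series, the titles of SC library 12, cHC library 13 and OHC (P7) library 15 hold a further sample number. Those of libraries 11, 16 and 14 do not. The former had 15016129 to 22597688 gene reads and the latter 33162033 to 40518766. What this split stands for is not stated, and its part was not tested.

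Most of the 82 genes kept only a few percent of their OHC level in cHCs. Both cHC libraries were under 10 CPM for 62 genes and under 1 CPM for 17, and 11 genes kept at least 10 CPM in both. The mean cHC level ranged from 0% to 17.9% of the mean of the 4 OHC libraries, with a median of 2.44%, and was under 1% for 25 genes and at least 5% for 22. Gm16152, a noncoding transcript inside the Aff3 gene, was the 1 gene with 0 counts in both cHC libraries. The number of genes rested on both cHC libraries: 156 genes met the same limits without cHC library 13 and 172 without cHC library 16. At the edge, Cpne9 (lowest OHC library 5.01 times the higher cHC library), Dytn (5.17) and Rgs11 (5.199) were just inside, and Fam189a2 (4.86), Faim2 (4.82) and Epn3 (4.77) just outside.

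**Figure D1:**
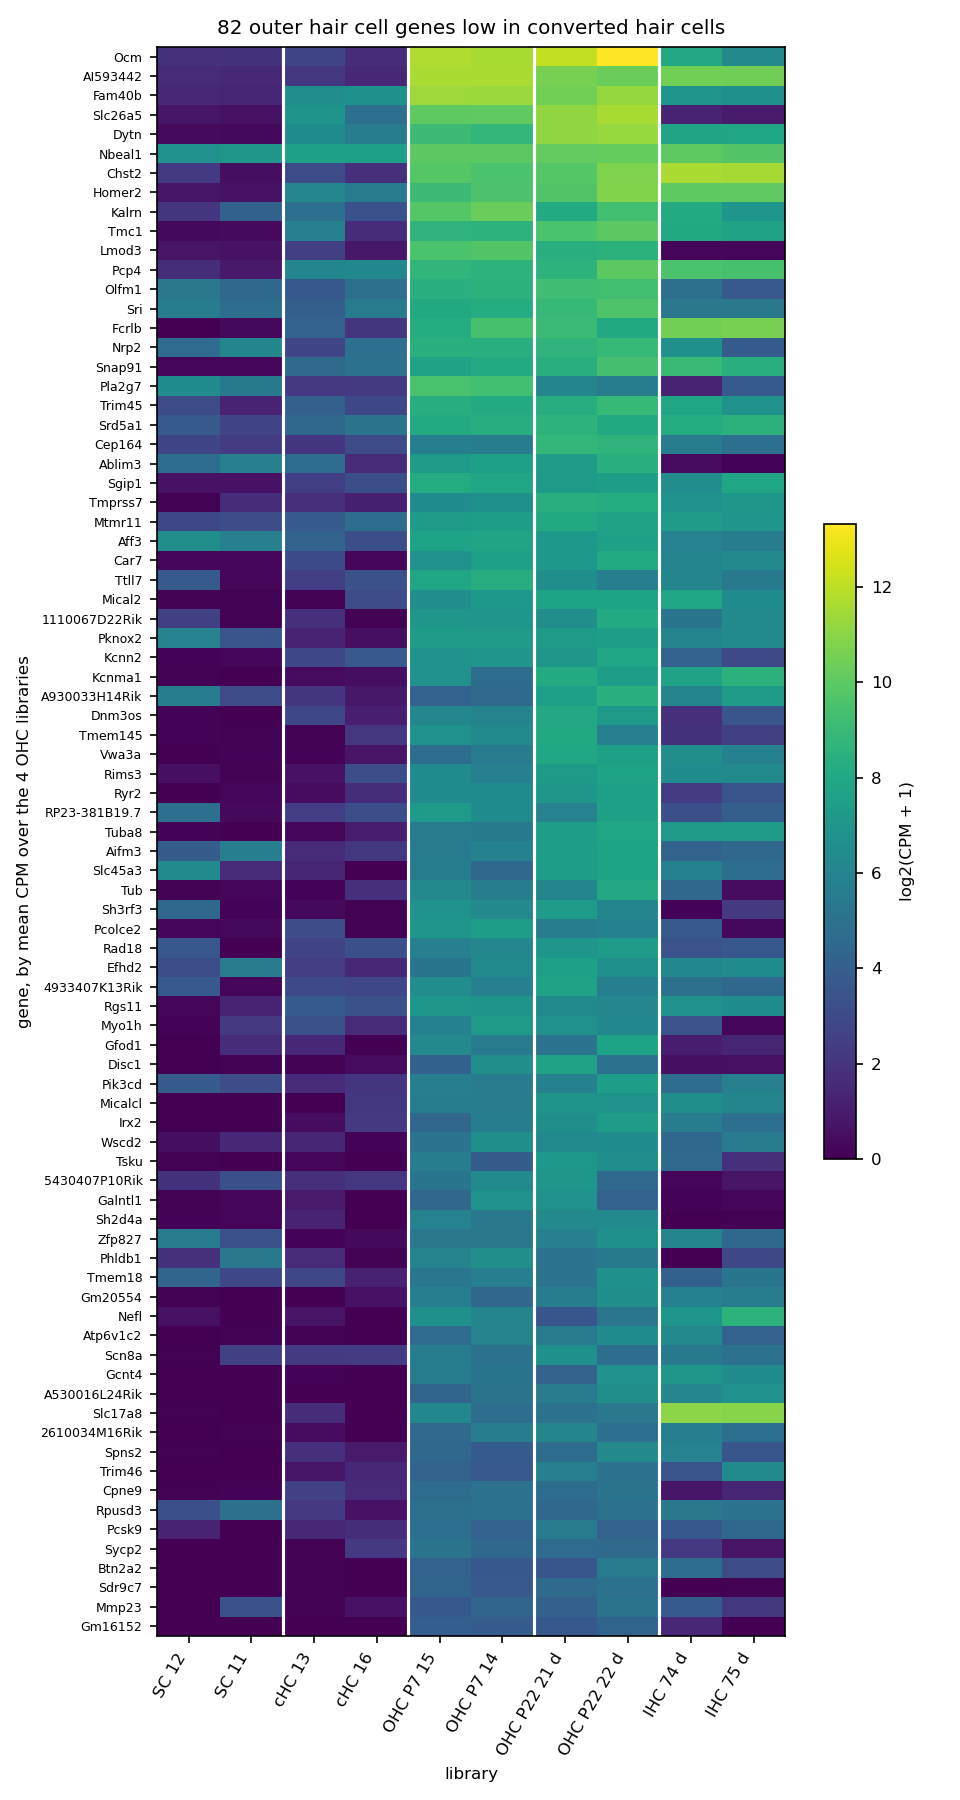
Level of each of the 82 genes in each of the 10 libraries as log2(CPM + 1), with genes ordered by their mean CPM over the 4 OHC libraries and white lines between groups. The 4 OHC columns are bright and the cHC columns dark by the rule, while the IHC columns, which the rule did not use, range from dark to brighter than OHCs.

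The gene for the OHC motor was among the most abundant members. Slc26a5, which encodes prestin (mm9 chr5:21316473-21371422, minus strand), stood at 1052 and 1074 CPM in OHCs (P7) and 2206 and 3055 CPM in OHCs (P22). It was at 117 and 27.8 CPM in cHCs, 1.43 and 0.943 CPM in IHCs, and in SCs at 0.752 and 0.494 CPM. Both cHC libraries thus lay above all SC and IHC libraries and below all OHC libraries, with a mean of 3.92% of the OHC level. Ocm (mm9 chr5:144780673-144787539, minus strand), the gene for the calcium buffer oncomodulin, was higher still in OHCs, at 3373 and 3103 CPM (P7) and 4402 and 10310 CPM (P22). It was at 5.96 and 2.26 CPM in cHCs, 260 and 75.3 CPM in IHCs, and 2.70 and 2.94 CPM in SCs. Its cHC and SC levels overlapped, and its lowest OHC library was 520 times its higher cHC library, the widest gap of the 82. Per kilobase of exon, Ocm (mean 7226 RPKM over the 4 OHC libraries) was also above Pcp4 (869 RPKM) and Slc26a5 (601 RPKM).

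Atoh1 and its partners bind E-boxes. The start regions of Slc26a5, Ocm and Dytn, a gene described further on, are therefore shown as RefSeq gives them, with some E-box words marked (build GRCm38.p6, 250 bases before and 50 after the annotated start, minus strand for all 3). Capitals mark CAGCTG, or CAGATG read on either strand as CAGATG or CATCTG.
Slc26a5, GRCm38.p6 chr5:21865555-21865854: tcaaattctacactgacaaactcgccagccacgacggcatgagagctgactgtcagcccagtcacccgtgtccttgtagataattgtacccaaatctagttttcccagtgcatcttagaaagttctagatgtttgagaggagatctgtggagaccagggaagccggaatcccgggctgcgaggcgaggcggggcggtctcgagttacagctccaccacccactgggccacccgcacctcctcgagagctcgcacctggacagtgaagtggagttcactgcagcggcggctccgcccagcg
Ocm, GRCm38.p6 chr5:144050560-144050859: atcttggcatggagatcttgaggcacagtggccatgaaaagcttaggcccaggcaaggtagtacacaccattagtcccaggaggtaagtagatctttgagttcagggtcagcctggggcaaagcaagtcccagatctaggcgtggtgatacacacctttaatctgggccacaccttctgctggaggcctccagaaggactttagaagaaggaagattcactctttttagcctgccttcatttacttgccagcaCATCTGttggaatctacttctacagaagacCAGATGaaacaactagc
Dytn, GRCm38.p6 chr1:63686878-63687177: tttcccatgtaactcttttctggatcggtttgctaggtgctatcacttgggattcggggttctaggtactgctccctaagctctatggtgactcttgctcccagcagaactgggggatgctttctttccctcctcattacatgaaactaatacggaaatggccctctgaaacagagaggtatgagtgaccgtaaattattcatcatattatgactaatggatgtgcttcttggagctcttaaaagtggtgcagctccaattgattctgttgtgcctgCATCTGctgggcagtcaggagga
Ocm held 2 of the marked words and Dytn 1, all within the 50 bases after the start, and Slc26a5 held none of them. Other forms of the E-box were neither searched nor marked, such as CACCTG, which the Slc26a5 sequence holds. Of the 82 genes, 68 matched a RefSeq entry by current or older symbol, with 88 start regions. CAGCTG was in 12.5% of these and in 16.3% of all 32851 start regions, and CAGATG or its reverse in 13.6% and 17.2%. The other words searched on both strands were TATAAA (6.82% of the members' start regions and 13.6% of all), AGGTCA (13.6% and 16.3%) and TGGGAA (27.3% and 25.6%). The median G and C share of the members' start regions was 62.2%, against 52.7% over all. These matches describe letters only and do not tell whether a factor binds there.

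Other members handle calcium or carry current. Sri, the gene for the calcium-binding protein sorcin, was at 274 and 307 CPM in OHCs (P7) and 492 and 811 CPM in OHCs (P22), and at 15.7 and 42.3 CPM in cHCs. The SC values (49.2 and 27.2 CPM) and the IHC values (38.4 and 39.5 CPM) overlapped those of cHCs. Ryr2, a ryanodine receptor that releases calcium from intracellular stores, was at 86.6 and 87.5 CPM in OHCs (P7) and 130 and 195 CPM in OHCs (P22). It was at 0.357 and 2.38 CPM in cHCs and 4.25 and 9.84 CPM in IHCs, and at 0 and 0.123 CPM in SCs, without overlap between these 3 groups. Pcp4, which encodes a small calmodulin regulator, was at 434.2 and 387.03 CPM and at 386.7 and 1020 CPM in the younger and older OHCs. With 68.2 and 73.8 CPM it was 1 of the members best kept in cHCs, at 12.7% of the OHC mean, and IHCs (764 and 706 CPM) were within the range of the OHC libraries.

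The channels differed in how much of them cHCs held. Tmc1, which encodes a pore-forming subunit of the mechanotransduction channel, was at 400 and 391.5 CPM in OHCs (P7), 758 and 998 CPM in OHCs (P22) and 270 and 202 CPM in IHCs. The cHC libraries disagreed on it, with 55.4 CPM in library 13 and 2.26 CPM in library 16, both above the SC levels of 0.221 and 0.247 CPM. Kcnn2, the small-conductance calcium-activated potassium channel SK2 of the efferent synapse, was at 116, 125, 133 and 226 CPM in the OHC libraries and at 6.27 and 12.4 CPM in cHCs. Its IHC levels, 17.1 and 6.75 CPM, overlapped those of cHCs, and SCs held 0.0885 and 0.173 CPM. Kcnma1, the large-conductance (BK) potassium channel, was at 105 and 25.2 CPM in OHCs (P7), 279 and 180 CPM in OHCs (P22), and 203 and 385 CPM in IHCs. In cHCs it was nearly missing, at 0.306 and 0.422 CPM, which were 6 and 14 counts. Scn8a, a voltage-gated sodium channel, was at 27.1 to 101 CPM in OHCs, 3.87 and 3.98 CPM in cHCs and 41.6 and 31.7 CPM in IHCs.

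**Figure D2:**
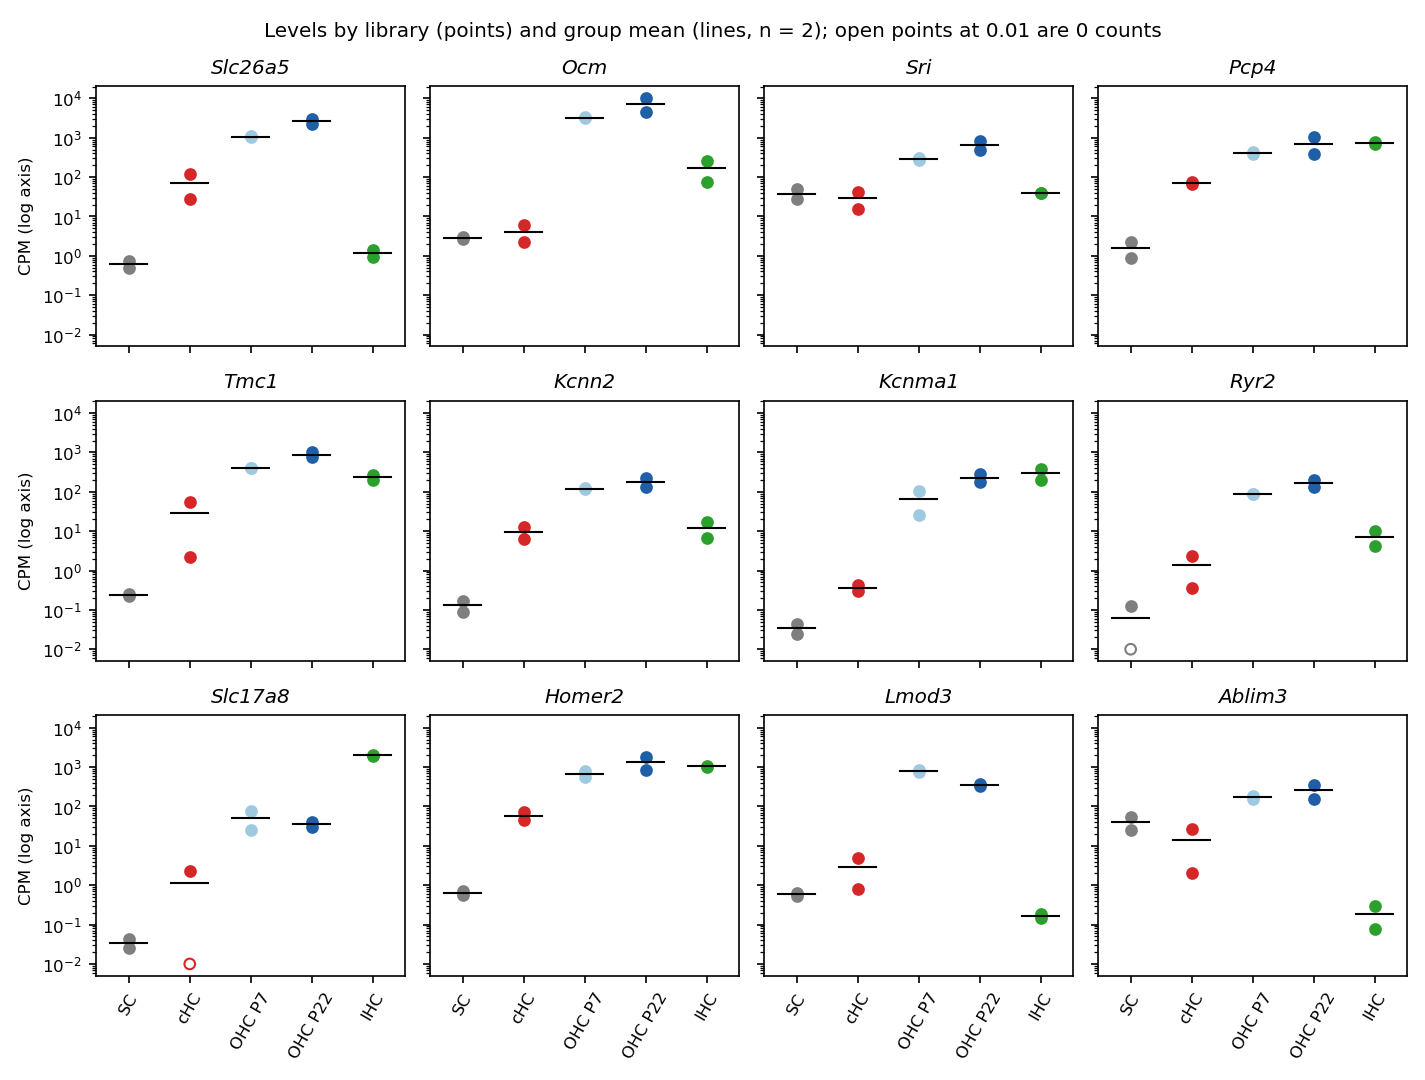
CPM of 12 members in each library on a log axis, by group, with points for libraries and lines for the mean of the 2 libraries; open points stand for 0 counts. Kcnma1, Ocm and Lmod3 lie furthest below OHCs in cHCs, and Pcp4 lies nearest to OHCs. Both cHC libraries lie above both SC libraries for Pcp4, Homer2, Kcnma1 and Lmod3, among others, but not for Ocm.

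IHCs also held the 5 members described here that belong to the synaptic and vesicle machinery, at a median of 106% of the OHC mean. Slc17a8, the vesicular glutamate transporter that loads hair cell vesicles, was at 74.9 and 25.8 CPM in OHCs (P7) and 30.6 and 39.3 CPM in OHCs (P22), against 2073 and 1934 CPM in IHCs. The cHC libraries held 2.24 and 0 CPM and SCs 0.0443 and 0.0247 CPM. It was the member with the highest IHC level relative to OHCs. Homer2, a scaffold protein of postsynaptic and calcium-signalling complexes, was at 572, 788, 847 and 1800 CPM in the OHC libraries, 1031 and 1098 CPM in IHCs, 71.1 and 44.2 CPM in cHCs, and 0.708 and 0.568 CPM in SCs. Snap91, a clathrin assembly protein of endocytosis, showed the same order, with 206 to 676 CPM in OHCs, 510 and 357 CPM in IHCs, 23.1 and 31.0 CPM in cHCs, and 0.177 and 0.197 CPM in SCs. Sgip1, also an endocytic protein, was at 154 to 291 CPM in OHCs and 4.54 and 8.14 CPM in cHCs, and the active zone protein gene Rims3 at 55.9 to 212 CPM and at 0.561 and 8.11 CPM.

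Members that shape actin, microtubules and filaments fell into those shared with IHCs and those that were not. Lmod3, which encodes an actin-nucleating leiomodin, was at 764 and 848 CPM in OHCs (P7), 325 and 383 CPM in OHCs (P22), and 4.84 and 0.814 CPM in cHCs. The IHC values (0.147 and 0.189 CPM) lay below the SC values (0.620 and 0.543 CPM), and its 2 OHC groups did not overlap. Ablim3, an actin-binding LIM protein gene, was at 154 to 352 CPM in OHCs and 24.96 and 55.4 CPM in SCs, but at 0.293 and 0.0754 CPM in IHCs. Its cHC levels, 26.3 and 2.08 CPM, overlapped those of SCs. Mical2, which encodes an enzyme that oxidises actin, and its neighbour Micalcl, 13114 bases away on chromosome 7 of mm9, were alike: cHC library 13 held 0.0510 and 0 CPM and library 16 held 7.69 and 3.498 CPM. In OHCs Mical2 was at 90.6 to 215 CPM and Micalcl at 42.2 to 117 CPM, and IHCs held 229 and 83.8 CPM and 98.3 and 68.5 CPM. Tuba8, an alpha-tubulin gene, was at 42.4 and 40.9 CPM in OHCs (P7), 169 and 232 CPM in OHCs (P22), 141 and 165 CPM in IHCs, and 0.153 and 1.12 CPM in cHCs. Nefl, the neurofilament light chain gene, was at 11.0 to 103 CPM in OHCs, 125 and 393 CPM in IHCs, and 0.612 and 0.0302 CPM in cHCs, while its neighbour Nefm, which is not a member, was at 79.3 and 125 CPM in cHCs.

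Gene regulators among the 82 included Aff3, Pknox2, Zfp827 and Irx2. Aff3, a nuclear elongation-complex protein gene, was at 208 and 217 CPM in OHCs (P7), 139 and 197 CPM in OHCs (P22), and 17.7 and 8.08 CPM in cHCs. SCs held more of it (93.6 and 55.6 CPM) than cHCs, without overlap, and IHCs held 58.8 and 46.7 CPM. The homeobox gene Pknox2 was at 142 to 169 CPM in OHCs and 63.7 and 82.1 CPM in IHCs, and its cHC levels (1.53 and 0.452 CPM) were below its SC levels (59.5 and 10.5 CPM). The zinc finger gene Zfp827 was at 38.9 to 103 CPM in OHCs, 0.102 and 0.211 CPM in cHCs (2 and 7 counts), and 44.3 and 9.40 CPM in SCs. Irx2, an Iroquois homeobox gene, differed from these in having 0 counts in both SC libraries, with 0.357 and 3.68 CPM in cHCs, 20.3 to 156 CPM in OHCs and 47.7 and 28.3 CPM in IHCs.

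Other members encode enzymes, receptors and proteins of less known function. Chst2, a sulfotransferase of glycan chains, was at 753 to 1743 CPM in OHCs and 3134 and 2918 CPM in IHCs, and at 7.24 and 2.44 CPM in cHCs. Gcnt4, a glycosyltransferase gene, was at 17.9 to 105 CPM in OHCs, 130 and 84.1 CPM in IHCs, and 0.102 and 0.0302 CPM in cHCs, which were 2 counts and 1 count. Atp6v1c2, which encodes a subunit of the proton pump of vesicles, had 1 and 0 counts in cHCs against 24.4 to 84.4 CPM in OHCs. Tsku, a secreted leucine-rich protein gene, had 3 and 0 counts in cHCs against 14.0 to 139 CPM. AI593442, an uncharacterised gene, was the second most abundant member by mean OHC CPM, though not per kilobase of exon. It was at 3232 and 3207 CPM in OHCs (P7), 1529 and 1316 CPM in OHCs (P22), 1419 and 1392 CPM in IHCs, 3.41 and 1.93 CPM in cHCs, and 1.99 and 1.75 CPM in SCs. Fam40b, a member of the striatin-interacting family, was at 1465 to 2700 CPM in OHCs, 92.0 and 103 CPM in cHCs, 125 and 102 CPM in IHCs, and 1.81 and 1.58 CPM in SCs. Sh3rf3 was at 68.9 to 157 CPM in OHCs and at 0.204 and 0.0603 CPM in cHCs, with SC libraries at 20.8 and 0.0987 CPM. Fcrlb, an Fc receptor-like gene, was at 303 and 704 CPM in OHCs (P7), 547 and 272 CPM in OHCs (P22), 1454 and 1531 CPM in IHCs, and 17.4 and 3.14 CPM in cHCs. A530016L24Rik had 0 and 1 counts in cHCs and none in SCs, against 19.6 to 95.7 CPM in OHCs and 69.8 and 108 CPM in IHCs.

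Several members act in signalling. Kalrn, the gene for the signalling protein kalirin, was at 888 and 1227 CPM in OHCs (P7), 279 and 631 CPM in OHCs (P22), and 28.7 and 9.38 CPM in cHCs. Nrp2, a semaphorin receptor gene, was at 335 to 492 CPM in OHCs, 5.96 and 28.3 CPM in cHCs, and 24.6 and 69.3 CPM in SCs, and the SC and cHC values overlapped. Olfm1, which encodes a secreted olfactomedin protein, was at 354 to 617 CPM in OHCs, and cHCs (11.1 and 29.7 CPM), SCs (37.4 and 21.3 CPM) and IHCs (29.6 and 12.2 CPM) overlapped one another. Rgs11, a regulator of G protein signalling, was at 71.3 to 133 CPM in OHCs, 13.7 and 8.90 CPM in cHCs, and 115 and 88.7 CPM in IHCs. Pik3cd, a catalytic subunit gene of phosphoinositide 3-kinase, was at 43.6 to 171 CPM in OHCs, 2.04 and 3.14 CPM in cHCs, and 13.2 and 7.92 CPM in SCs, so that cHCs were below SCs.

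Among metabolic genes, Srd5a1, a steroid 5-alpha-reductase, was at 273 to 390.6 CPM in OHCs, 20.998 and 33.4 CPM in cHCs, and 290 and 374 CPM in IHCs. Car7, a carbonic anhydrase gene, was at 105 to 286 CPM in OHCs, with 7.03 CPM in cHC library 13 and 0.121 CPM in library 16. Pla2g7, the gene for a secreted phospholipase that cleaves platelet-activating factor, was at 734 and 620 CPM in OHCs (P7) but at 67.4 and 49.2 CPM in OHCs (P22), and at 3.62 and 3.86 CPM in cHCs. SCs held 84.2 and 40.8 CPM of it, 1 value above and 1 below those of the older OHCs. Cep164, which encodes a protein of the centriole and cilium base, went the other way, at 52.5 and 49.9 CPM in OHCs (P7) and 458 and 409 CPM in OHCs (P22), with 2.96 and 7.69 CPM in cHCs. Disc1, a scaffold protein gene, varied between libraries of 1 group, at 16.4 and 93.8 CPM in OHCs (P7) and 201 and 31.9 CPM in OHCs (P22), with 1 and 10 counts in cHCs. The 27 members not named in the text had mean OHC levels of 19.9 to 350 CPM, mean cHC levels of 0.271% to 9.67% of these, and mean IHC levels of 0.0293% to 102%.

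The 2 cHC libraries differed for single genes but not in one direction. They also differ in title form and gene total, as given above, and the part of these was not tested. Library 13 was the higher for 43 of the 82 genes. Among the 44 members with over 100 counts in at least 1 cHC library, 19 were within 2-fold between the libraries, 6 were at least 5 times higher in library 13 and 6 at least 5 times higher in library 16. Tmc1 was among the first, and Mical2, Micalcl and Rims3 among the second. Nbeal1, a BEACH domain protein gene, was the best kept member, with 192 CPM in both cHC libraries, 1002 to 1169 CPM in OHCs and 107 and 131 CPM in SCs.

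**Figure D3:**
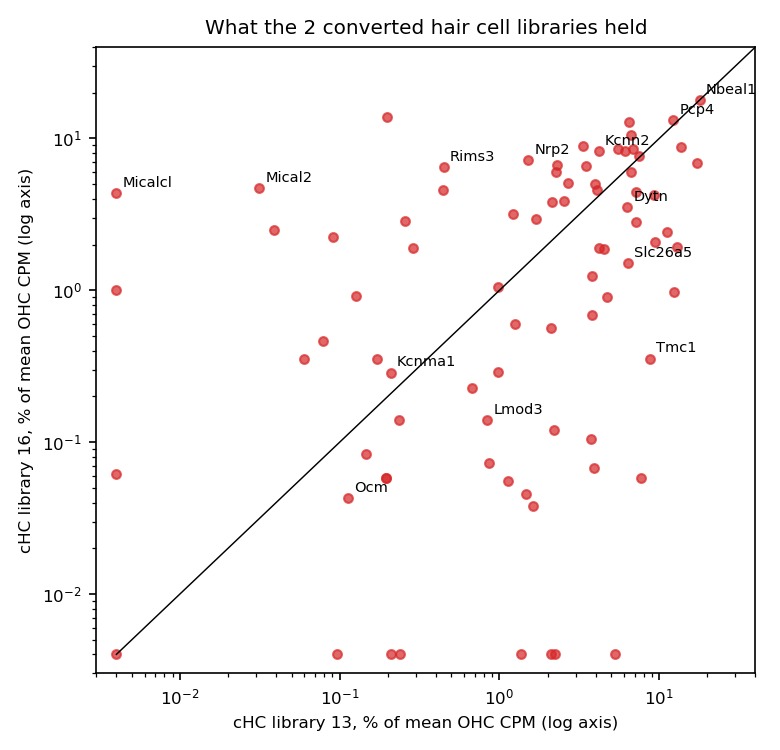
Level of each of the 82 genes in cHC library 13 (x axis) and cHC library 16 (y axis), as a percentage of its mean CPM over the 4 OHC libraries, on log axes with 0 drawn at 0.004 and a line where both are equal. Nbeal1 and Pcp4 lie near the line at 17.9% and 12.7% on average, Tmc1 far below it, and Mical2 and Micalcl far above it.

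Against SCs, the cells of origin, the levels of the members in cHCs differed from gene to gene. Both cHC libraries were above both SC libraries for 31 of the 82 genes and below both for 12. Among the 4265 other genes at 10 CPM or more in all 4 OHC libraries the shares were 36.2% above and 14.8% below, and 31 and 12 of 82 are close to both. With TMM-scaled library sizes the counts were 27 and 15, and the shares among the other genes 27.6% and 22.6%. Slc26a5, Tmc1, Kcnn2, Dytn, Homer2, Snap91 and Pcp4 were among those above SCs, and Aff3, Pknox2 and Zfp827 among those below. Of the 82, 61 (74.4%) also met the same limits against SCs, as did 315 of the 4347 OHC genes in all (7.25%), so that 19.4% of the SC-low genes were members. In 75 of those 315 genes (23.8%) both cHC libraries were at or above the lowest OHC library. The other 21 members were not low in SCs by these limits, and the highest SC levels relative to OHCs were those of Rpusd3 (66.6%), Zfp827 (45.1%), Aff3 (39.2%), Phldb1 (37.4%) and Slc45a3 (35.1%), in each of which the cHC mean was lower than the SC mean. For 4 of these the level was that of 1 SC library in the main: the SC values were 8.54 and 29.0 CPM for Rpusd3, 44.3 and 9.40 CPM for Zfp827, 2.74 and 40.1 CPM for Phldb1, and 78.7 and 2.12 CPM for Slc45a3. The 82 genes had a median SC level of 0.231% of the OHC mean, and 7 had 0 counts in both SC libraries: A530016L24Rik, Btn2a2, Gcnt4, Irx2, Sdr9c7, Sycp2 and Trim46.

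Most of the 82 were on none of the lists of hair cell function used here. The lists were chosen with earlier results of these data known and include a list of OHC markers. Nothing is therefore read from how often listed genes were taken. Of 171 genes on 9 lists of hair cell function, 97 reached 10 CPM in all 4 OHC libraries and 9 of these (9.28%) were members, where the rule took 1.89% of all such genes. For 47 of the 97 (48.5%) both cHC libraries were at or above the lowest OHC library, as they were for 62.8% of the 4347 OHC genes. Mechanotransduction had 1 member of 11 genes at that level, Tmc1, while Lhfpl5, Cdh23, Pcdh15, Tmie, Cib2 and Ush1c were at or above the lowest OHC library in both cHC libraries. For Pcdh15 (128 and 250 CPM in SCs) and Ush1c (129 and 104 CPM in SCs) the cHC and SC levels overlapped. Ush1c in cHCs (101 and 140 CPM) was also below its levels in OHCs (P22), 1005 and 536 CPM. The hair bundle list had 1 member of 22, Lmod3. The list of OHC markers had 3 of 7 (Slc26a5, Ocm and Sri), and none of its genes reached the lowest OHC library in both cHC libraries: Ikzf2 was at 75.2 and 26.8 CPM against 292 to 546 CPM, a ratio of 3.88 that kept it outside. Of the efferent synapse, Kcnn2 was a member and the receptor subunit genes Chrna9 (802 and 769 CPM in cHCs, 130 to 236 CPM in OHCs) and Chrna10 (141 and 225 CPM, 442 to 994 CPM) were not. The potassium channel list had 1 member of 7 (Kcnma1), calcium handling 2 of 13 (Ocm and Sri), ribbon synapse and release 1 of 9 (Slc17a8), transcription factors 1 of 22 (Aff3) and energy metabolism 0 of 6. Sall1 (ratio 4.53), Sall3 (4.37) and Six2 (4.38) lay just under the limit. The remaining 73 members were on no list, among them Ryr2, Scn8a, Homer2, Snap91, Rims3 and the gene regulators Pknox2, Zfp827 and Irx2. The lists thus do not cover all members with such roles.

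**Figure D4:**
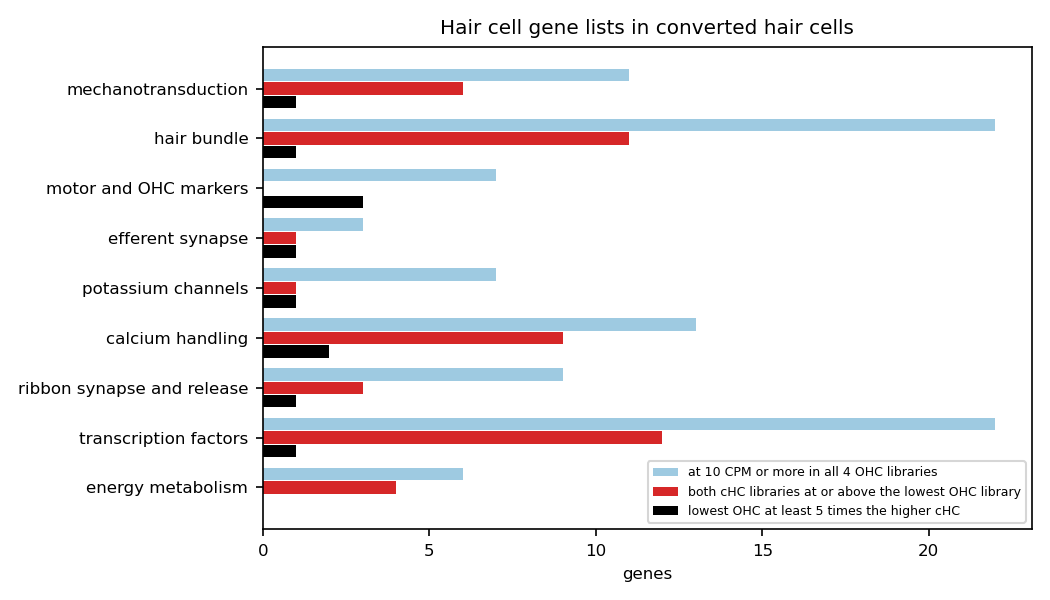
Number of genes of each of 9 hair cell lists that had at least 10 CPM in all 4 OHC libraries (blue), that were at or above the lowest OHC library in both cHC libraries (red), and that were members (black). The OHC marker list has 3 members of 7 and no red bar, and the hair bundle list 1 member of 22 with 11 genes in red.

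The rule used neither IHC nor SC values, but it chose low levels in cHCs, which are made from SCs. Of the 82, 61 (74.4%) were also low in SCs by the same limits, against 7.25% of the 4347 OHC genes. Their SC levels are thus not independent of the choice, and comparing IHCs with SCs cannot settle whether the members are hair cell genes at large. The comparison gives the members' IHC levels beside their SC levels. All 82 were tested, since the low-count filter took in all 10 libraries and the OHC levels asked for by the rule helped them pass. Of them 40 (48.8%) were higher in IHCs at an adjusted p under 0.05 (edgeR quasi-likelihood test with Benjamini-Hochberg adjustment over 16891 genes). The share called higher was 2.23% of all genes tested and 5.44% of the other genes at 10 CPM in all 4 OHC libraries. One member, Ablim3, was lower in IHCs (log2 fold change -7.93, SE 1.33, adjusted p = 0.00887), against 0.42% of all genes. The median log2 fold change of the members was 4.85 and that of all genes 0. Both IHC libraries were above both SC libraries for 59 members and 38.3% of the other OHC genes, and with TMM-scaled library sizes for 56 members and 33.4%. Genes with under 10 counts in a library carried many of these calls: with at least 10 counts required in every library compared, 28 members could be tested and 12 were called higher. With the filter and the fit on these 4 libraries alone, 76 members could be tested and 26 were called higher.

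Among the calls were genes of every role. Homer2 (log2 fold change 10.52, SE 0.61, adjusted p = 8.41e-06), Snap91 (10.94, SE 0.71, adjusted p = 1.36e-05), Dytn (9.64, SE 0.63, adjusted p = 1.36e-05), AI593442 (9.37, SE 0.63, adjusted p = 1.57e-05) and Pcp4 (8.69, SE 0.67, adjusted p = 4.02e-05) were higher in IHCs with SC counts that were not all 0. Kcnma1 (12.77, SE 1.28, adjusted p = 0.000286), Slc17a8 (15.54, SE 2.09, adjusted p = 0.00219) and Tmc1 (9.76, SE 1.40, adjusted p = 0.00327) rested on few SC counts, 1 count in each library for the first 2 and 5 and 10 for Tmc1. Snap91 (4 and 8 counts) and Dytn (6 and 9 counts) had as few. Chst2, Fcrlb, Tuba8, Mical2 and Micalcl were also called. Gcnt4, A530016L24Rik, Irx2, Btn2a2 and Trim46 had 0 counts in both SC libraries, and their mean IHC levels were at least 1035-fold, 859-fold, 368-fold, 156-fold and 435-fold higher than the mean of the levels that 3 counts per SC library would give. Ocm was higher in IHCs by 5.71 on the log2 scale (SE 0.69, adjusted p = 0.00107), and lost the call with limma-voom (adjusted p = 0.0958). Ryr2 (6.34, SE 1.31, adjusted p = 0.0278) and Kcnn2 (6.22, SE 0.91, adjusted p = 0.00365) were called at low IHC levels, and both lost the call with only the 4 libraries compared (adjusted p = 0.187 and 0.136), Ryr2 also without SC library 12 (adjusted p = 0.0842). With only those 4 libraries Ablim3 (adjusted p = 0.0694), Irx2 (0.0504), Trim46 (0.0673) and Btn2a2 (0.114) lost the call too. Btn2a2 also lost it without either SC library (adjusted p = 0.0752 and 0.0914) and without the 74-day IHC library (0.0518), and Micalcl without either SC library (0.0577 and 0.05004). Not called were Slc26a5 (0.76, SE 0.62, adjusted p = 0.550), Lmod3 (-1.94, SE 0.80, adjusted p = 0.251), Sri (-0.14, SE 0.55, adjusted p = 0.945) and Aff3 (-0.67, SE 0.58, adjusted p = 0.583).

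Markers of other cells moved between these groups too. The 12 SC markers summed to 1303 and 1060 CPM in IHCs, with Gjb2 (665 and 514 CPM) and Slc1a3 (264 and 212 CPM) above their levels in both SC libraries. The 6 neuron markers summed to 391.4 and 577 CPM in IHCs and 1.06 and 0.148 CPM in SCs. Nefl and Nefm carried most of that sum, while Tubb3 was at 1.36 and 0.377 CPM and Prph at 0 in both IHC libraries. The 6 blood markers summed to 47.7 and 30.8 CPM against 0.266 and 0.346 CPM. Their part in the result was not tested. SCs and IHCs also differed in age and in the series of library numbers, and these cannot be told apart from the cell type.

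**Figure D5:**
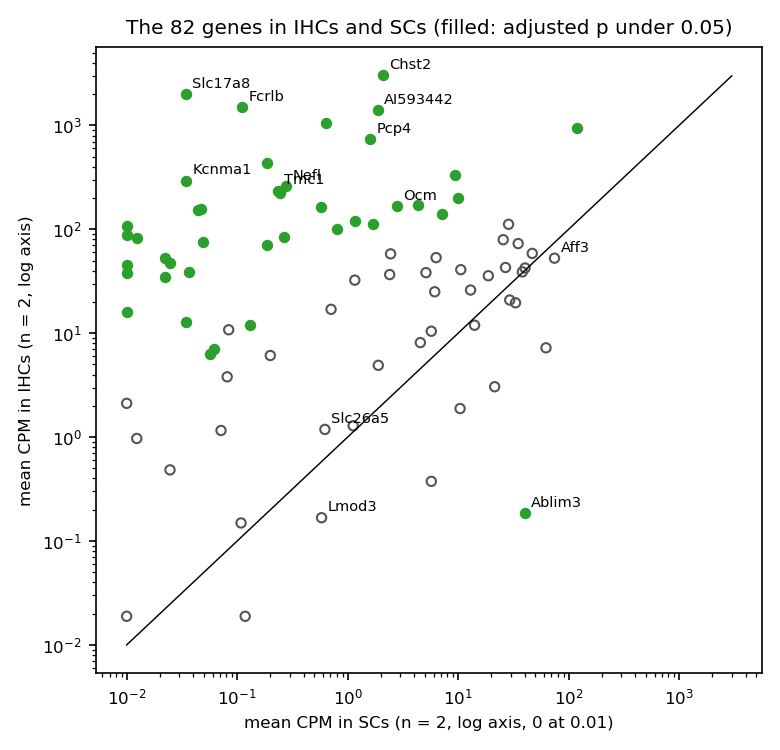
Mean CPM of each of the 82 genes in SCs (x axis) and IHCs (y axis), each over 2 libraries, on log axes with 0 drawn at 0.01 and a line where both are equal; filled points had an adjusted p under 0.05. Filled points lie above the line except Ablim3, and Slc26a5 and Lmod3 are low in both groups.

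The members split by their IHC levels. Both IHC libraries reached 10 CPM for 54 members and both stayed under it for 17, and the median IHC level was 39.9% of the OHC mean. With IHCs in place of cHCs the same limits took 75 of the 4347 OHC genes (1.73%), and 23 of the 82 (28.0% of the members and 30.7% of the 75) were among them. These 23 included Slc26a5, Ocm, Sri, Kcnn2, Ryr2, Lmod3, Fam40b and Ablim3, and 19 of them were low in SCs as well. A further 42 members were low in SCs but not in IHCs, 4 were low in IHCs but not in SCs, and 17 were low in neither. Both IHC libraries were below all 4 OHC libraries for 40 members and above all 4 for 5, where the other OHC genes gave 13.1% and 13.4%. The 5 were Slc17a8, Chst2, Fcrlb, Nefl and Rpusd3. As the rule asks for high values in OHCs, these counts are given without a test.

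The last comparison was that of older with younger OHCs, and asks whether their levels differed with OHC age. The same 4 OHC libraries chose the members, each having to pass 10 CPM and 5 times the higher cHC level, so the values and counts here are a description and nothing is read from them about the 82 genes. Dytn, which encodes the dystrophin-related protein dystrotelin, was at 2185 and 2457 CPM in OHCs (P22) against 553 and 460 CPM in OHCs (P7), a fitted log2 fold change of 2.54 (SE 0.45). Its cHC levels were 88.9 and 49.7 CPM, its IHC levels 222 and 225 CPM, and its SC levels 0.266 and 0.222 CPM. It was the 1 member past the threshold of the edgeR fit in the higher direction, and was no longer past it when either OHC (P7) library or the 21-day OHC library was left out. Without the 22-day OHC library 2 members were past it. Of all genes tested 0.13% were called higher and 0.42% lower. DESeq2 took 6 members as higher and limma-voom 5, where they took 3.99% and 0.337% of all genes. No member was lower with edgeR, and 1 each was lower with DESeq2 (5.61% of all genes) and limma-voom (0.314%). At an unadjusted p under 0.05 of the edgeR fit, 12 members were higher (5.90% of all genes) and 1 was lower (7.95%).

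On the CPM scale both OHC (P22) libraries were above both OHC (P7) libraries for 36 members and below both for 12, where the other OHC genes gave 24.1% and 22.3%. With TMM-scaled library sizes the counts were 49 and 9, and the shares 30.8% and 18.3%. The fitted log2 fold changes were 1.60 for Slc26a5 (SE 0.59), 1.36 for Ocm (SE 0.57), 1.46 for Tmc1 (SE 0.96) and 2.29 for Kcnma1 (SE 0.78). They were wider for Cep164 (3.48, SE 0.69) and, in the other direction, for Pla2g7 (-3.10, SE 0.90). Lmod3 (-0.86, SE 0.68) and AI593442 (-0.78, SE 0.44) had lower values in OHCs (P22), with no overlap between the groups. OHC age cannot be told apart from the series of library numbers or, by the study's supplement, from the mouse line.

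The members were not gathered in one place in the genome. Of the 82, 78 had a single locus in the mm9 GENCODE annotation and 75 of these were protein coding, and no chromosome held more than 8. Aff3 and Gm16152 overlap, Mical2 and Micalcl lie side by side, and Cpne9 and Rpusd3 are 109692 bases apart on chromosome 6. Exons of 16 members overlap another gene, Nefl with Nefm among them, and the counting is not stated to use strand, so reads of such pairs cannot be told apart. For Dnm3os, a noncoding transcript that lies inside Dnm3, OHCs held 60.3 to 259 CPM and cHCs 6.27 and 1.21 CPM, and Dnm3 itself had a ratio of 3.83 between its lowest OHC and higher cHC library. The spread of a member over the 4 OHC libraries was under 2-fold for 16 genes and 5-fold or more for 21, with a median of 2.99-fold.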

How the data were processed

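The labels describe 10 bulk libraries of handpicked mouse cochlear cells. The authors used single primer isothermal amplification (SPIA) of cDNA, mapped paired-end reads to mm9 with STAR and BWA, and deposited raw HTSeq counts per gene symbol, with the reads not assigned to genes on separate lines (44.2% to 72.1% of each total), which were left out here. For 4 of 10 samples GEO links a file with another sample's counts. Each file was therefore taken by the library name it shares with a sample title, and this match was checked against the CPM columns in the study's supplement (coefficient of variation of the ratio at most 0.000138% for the matched file and at least 170% for any other).

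CPM were computed on the sum of gene counts, and RPKM on the exon union of GENCODE. The members and gene lists were chosen with earlier results of these data known, and the genes grouped by role, and Olfm1, Cep164 and Disc1, were chosen after their values were seen. Named genes were, by rule, the members on the function lists, those with the widest gaps, the highest OHC levels, the largest calls in each test, the ends of the SC range and the edges of the limits. Tests used edgeR 4.0.16 (quasi-likelihood, TMM, filterByExpr, 1 model of 10 libraries, Benjamini-Hochberg over 16891 genes, threshold 0.05) in R 4.3.3, and were tested on simulated data, where most of the changes put in were not called and some calls were false. Each SE was worked back from the edgeR test, as the absolute log2 fold change over the square root of its F statistic. DESeq2 1.42.0, limma 3.58.1 (voom), other scalings, filters and limits, and leaving out each library were alternatives. The precision of single values is limited by counting error, for which the 3-count floor is given, and by 2 libraries per group, which differed by more than sampling noise in each group. By the study's supplement each library came from a small number of handpicked cells, and the cDNA was amplified. The 3-count floor does not cover these steps, and their part in low values and in differences between duplicates was not tested.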

Additional observations from a re-analysis of the deposited data

How the results depend on the processing

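The number of members was 141 with a minimum fold of 3, 46 with a minimum fold of 10, 111 with TMM-scaled library sizes, and 6, none of them shared, with the files as attached to the records. Leaving out 1 library gave 91 to 172. Of IHCs against SCs, 49 members were higher with DESeq2, 36 with limma-voom, 12 with at least 10 counts in every library compared (28 tested), 26 with only the 4 libraries compared (76 tested) and 0 with the files as attached. The number lower was 3 with DESeq2, 3 with no filter on low counts, and 0 with at least 10 counts, with only the 4 libraries and with the files as attached. Leaving out 1 library gave 34 to 41 higher and 1 to 2 lower, 2 of these without the 75-day IHC library. Where a group was left with 1 library, that library was assumed to vary like the others. Of OHCs (P22) against OHCs (P7), given as a description, 6 members were higher with DESeq2, 5 with limma-voom, 6 with no filter, and 0 with no TMM scaling, with only the 4 libraries and with the files as attached. The number lower was 1 with DESeq2, limma-voom and no filter. Leaving out 1 library gave 0 to 2 higher and 0 lower. No called gene changed sign under any of these settings, and 16 of 42 gene calls were lost with only the 4 libraries, 4 with limma-voom and 1 with no TMM scaling. With the files as attached all 42 were lost, since libraries of different groups are then taken as duplicates. No paired analysis was run, because the groups tested against each other share no replicate numbers. The split in titles among SCs, cHCs and OHCs (P7) was not modelled. Depth limits the members near 0: 21 were at or under 3 counts in both SC libraries and 7 in both cHC libraries.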
